A study of Homo sapiens with 18 samples.

Results

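The 10 genes described here mark the primitive streak, mesendoderm and mesoderm, and were followed through ectoderm cultures made from human pluripotent stem cells: MIXL1, EOMES, TBXT, GSC, APLNR, MESP1, TBX6, TCF15, MEOX1 and FOXC1. They are 10 of the 37550 rows of the expression table and were picked by symbol, with their levels in all 9 groups of cultures already known. Their levels and differences are therefore given as a description, with no p. Counts of them past a call threshold are set beside the share of all tested genes, with nothing read from these counts. All 18 libraries came from the established, wild-type human embryonic stem cell line H1, with 2 biological replicates in each group, so no result covers a second line. Messenger RNA was measured by bulk sequencing and is given as TPM, the abundance of each transcript scaled for its length and to a fixed total per library, which can be compared between genes.

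Undifferentiated cells formed the group called hPSC (day 0). Neural ectoderm was collected at day 2 as an anterior form, aNE, and a posterior form, pNE. Day-4 groups carry the suffix of their medium: T for the forebrain medium, M for the midbrain medium and H for the hindbrain medium, so that aNE_M is aNE kept in midbrain medium. Each differentiated culture had first spent a day in a definitive ectoderm medium with 4 inhibitors. These were A8301 (1 µM), against the receptors of TGF-beta, activin and NODAL, LDN193189 (100 nM), against BMP receptors, trametinib (250 nM), against MEK, and C59 (1 µM), which stops WNT ligands from being secreted. On day 2, A8301 and LDN193189 stayed at those doses in both media, with the survival agent thiazovivin at 1 µM. The aNE medium also held C59 (1 µM), whereas the pNE medium held FGF2 (20 ng/mL), XAV939 (1 µM), a tankyrase inhibitor that dampens WNT signalling, and TTNPB (50 nM), which activates retinoic acid receptors. Plating density was 37500 cells per cm2 for day-2 collection. For day-4 collection it was 75000 from aNE and 150000 from pNE, so that origin and density at day 4 cannot be told apart. The protocol text used here stops within the forebrain medium, which began with XAV939, LDN193189 and FGF2. The agents of the midbrain and hindbrain media, and whether any acts on WNT signalling, were therefore not used in describing the values from those media.

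In the gastrulating embryo, cells that pass through the primitive streak become mesoderm and endoderm, while cells that stay in front of it become ectoderm and neural tissue. NODAL, WNT, BMP and FGF signals switch on the streak genes. The T-box factors EOMES and TBXT (Brachyury) and the homeobox factors MIXL1 and GSC (goosecoid) act in the streak and its early products. APLNR is the receptor for the peptides apelin and ELABELA and is expressed by early mesoderm. The basic helix-loop-helix factor MESP1 marks early cardiac and cranial mesoderm, and TBX6 the mesoderm that will form somites. TCF15 (paraxis), the homeobox factor MEOX1 and the forkhead factor FOXC1 act in paraxial mesoderm and somites. Several of these genes are also used outside the mesoderm: EOMES in progenitors of cortical neurons, FOXC1 in the mesenchyme of the head, and TCF15 in pluripotent cells.

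In the GENCODE version 29 annotation of GRCh38, the streak factors lie at chr1:226223618-226227054 (MIXL1, plus strand), chr3:27715949-27722711 (EOMES, minus strand), chr6:166157656-166168700 (TBXT, minus strand) and chr14:94768216-94770230 (GSC, minus strand). APLNR lies at chr11:57233577-57237314, MESP1 at chr15:89748661-89751310 and TBX6 at chr16:30085793-30091887, all on the minus strand. TCF15 at chr20:603797-610398 and MEOX1 at chr17:43640388-43661954 are also on the minus strand, and FOXC1 lies at chr6:1609972-1613897 on the plus strand. No other annotated gene overlapped any of the 10. TBX6 stands closest to its neighbours, 416 bp from PPP4C and 427 bp from YPEL3. These 2 neighbours were read at 160.2 to 243.4 TPM and at 16.2 to 46.9 TPM over the 18 libraries, against at most 3.52 TPM for TBX6. MESP1 lies 9281 bp from its paralogue MESP2, which reached at most 1.42 TPM.

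The RefSeq promoter table (GRCh38.p14) held windows for 6 of the 10 genes, each of 250 bases before and 50 after a transcription start: MIXL1, EOMES, TBXT with 2 starts, GSC, TBX6 and FOXC1. The 3 printed here belong to the streak genes with the highest levels, MIXL1 and EOMES from the midbrain medium and GSC from day-2 aNE. Capitals in the MIXL1 window mark the WNT-pathway TCF/LEF motif CTTTGATC, which starts 76 bases before the transcription start. Capitals in the GSC window mark a TATA motif, TATAAA, 155 bases before the start. The EOMES window held none of the searched motifs and is printed without capitals. The windows are chr1:226223414-226223713 (plus strand), chr3:27722274-27722573 (minus strand) and chr14:94770064-94770363 (minus strand), each 5′ to 3′ along its gene.
MIXL1: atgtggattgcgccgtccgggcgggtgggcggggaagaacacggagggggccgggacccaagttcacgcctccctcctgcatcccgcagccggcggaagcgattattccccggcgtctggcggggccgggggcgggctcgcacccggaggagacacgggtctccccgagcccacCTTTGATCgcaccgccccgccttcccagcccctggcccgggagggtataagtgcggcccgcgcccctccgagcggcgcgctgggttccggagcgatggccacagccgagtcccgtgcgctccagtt
EOMES: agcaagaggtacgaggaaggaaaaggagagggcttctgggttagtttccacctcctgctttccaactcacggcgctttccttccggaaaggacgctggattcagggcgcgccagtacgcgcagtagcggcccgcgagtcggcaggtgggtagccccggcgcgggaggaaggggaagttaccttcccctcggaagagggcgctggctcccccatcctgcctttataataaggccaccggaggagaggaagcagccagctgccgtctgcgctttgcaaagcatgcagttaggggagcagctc
GSC: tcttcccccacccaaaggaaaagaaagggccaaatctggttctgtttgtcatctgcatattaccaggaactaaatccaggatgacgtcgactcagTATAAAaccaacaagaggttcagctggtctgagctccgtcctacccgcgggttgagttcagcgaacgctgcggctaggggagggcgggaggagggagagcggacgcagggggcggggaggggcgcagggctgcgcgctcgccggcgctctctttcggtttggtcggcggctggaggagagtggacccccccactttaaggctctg

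The TCF/LEF motif, searched on both strands, was present in 0.652% of the 35116 windows of the same length, and the TATA motif, searched on the gene's strand, in 7.33%. Of the 7 windows of these genes, only that of MIXL1 held CTTTGATC and only that of GSC held TATAAA. Neither the T-box motif TCACACCT (0.98% of all windows), the TCF/LEF form CTTTGAAC (0.769%), the SMAD motif GTCTAGAC (0.202%) nor the retinoic acid direct repeat with 5 free bases between its repeats (0.0057%) was found in any of the 7, all searched on both strands. A match is a run of letters in the window and not a measured binding site. Only exact letters counted, so that near forms, such as tataag in the MIXL1 window, were not marked. The windows of MIXL1, FOXC1 and TBX6 were rich in G and C, at 73.3%, 72.7% and 71.3% against a median of 58.7% over all windows. EOMES at 61.7%, GSC at 60.3% and the TBXT windows at 58.3% and 65.7% lay closer to that median.

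The libraries listed 19239 to 21235 genes above 0 TPM and 13686 to 14679 at 1 TPM or more, with 0.96 to 3.74% of TPM from mitochondrial genes. Replicates correlated at 0.982 to 0.987 (Pearson's r over genes on the log2 scale), and no pair of libraries from different groups exceeded 0.968. By summed TPM, marker lists were highest in the matching group among the undifferentiated and day-2 cultures. Pluripotent markers summed to 4609 to 4628 TPM in hPSC and to no more than 587 TPM elsewhere. Anterior neural markers summed to 998.5 to 1022 TPM in aNE, but pNE also held 122.4 to 159.1 TPM of them, against 27.8 to 30.3 TPM in hPSC. Posterior neural markers summed to 365.4 to 425 TPM in pNE against 1.33 to 1.45 TPM in aNE. The midbrain-medium and hindbrain-medium cultures held less of the pan-neural markers (SOX1, SOX2, PAX6, SOX21, HES5 and NCAM1) than the day-2 culture they came from, at 83.3 to 84.4 TPM in aNE_M against 507.6 to 508.8 TPM in aNE.

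The 10 genes peaked in different groups. MIXL1, EOMES, TBXT and APLNR peaked in aNE_M. GSC peaked in day-2 aNE and TCF15 in hPSC. MEOX1 peaked in pNE_M and FOXC1 in pNE_H, and both were higher in the pNE-derived than in the aNE-derived culture of the forebrain and hindbrain media. MESP1 stayed under 1 TPM in all 18 libraries and TBX6 in all but the hPSC pair. The sum over the 10 genes was 183.2 to 214.3 TPM in aNE_M, followed by 51.5 to 57.2 TPM in pNE_H and 55.0 to 56.0 TPM in pNE_M. It was lowest in aNE_T, at 9.62 to 10.2 TPM. In bulk RNA, fewer cells of a type and less RNA per cell cannot be told apart.

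**Figure D1:**
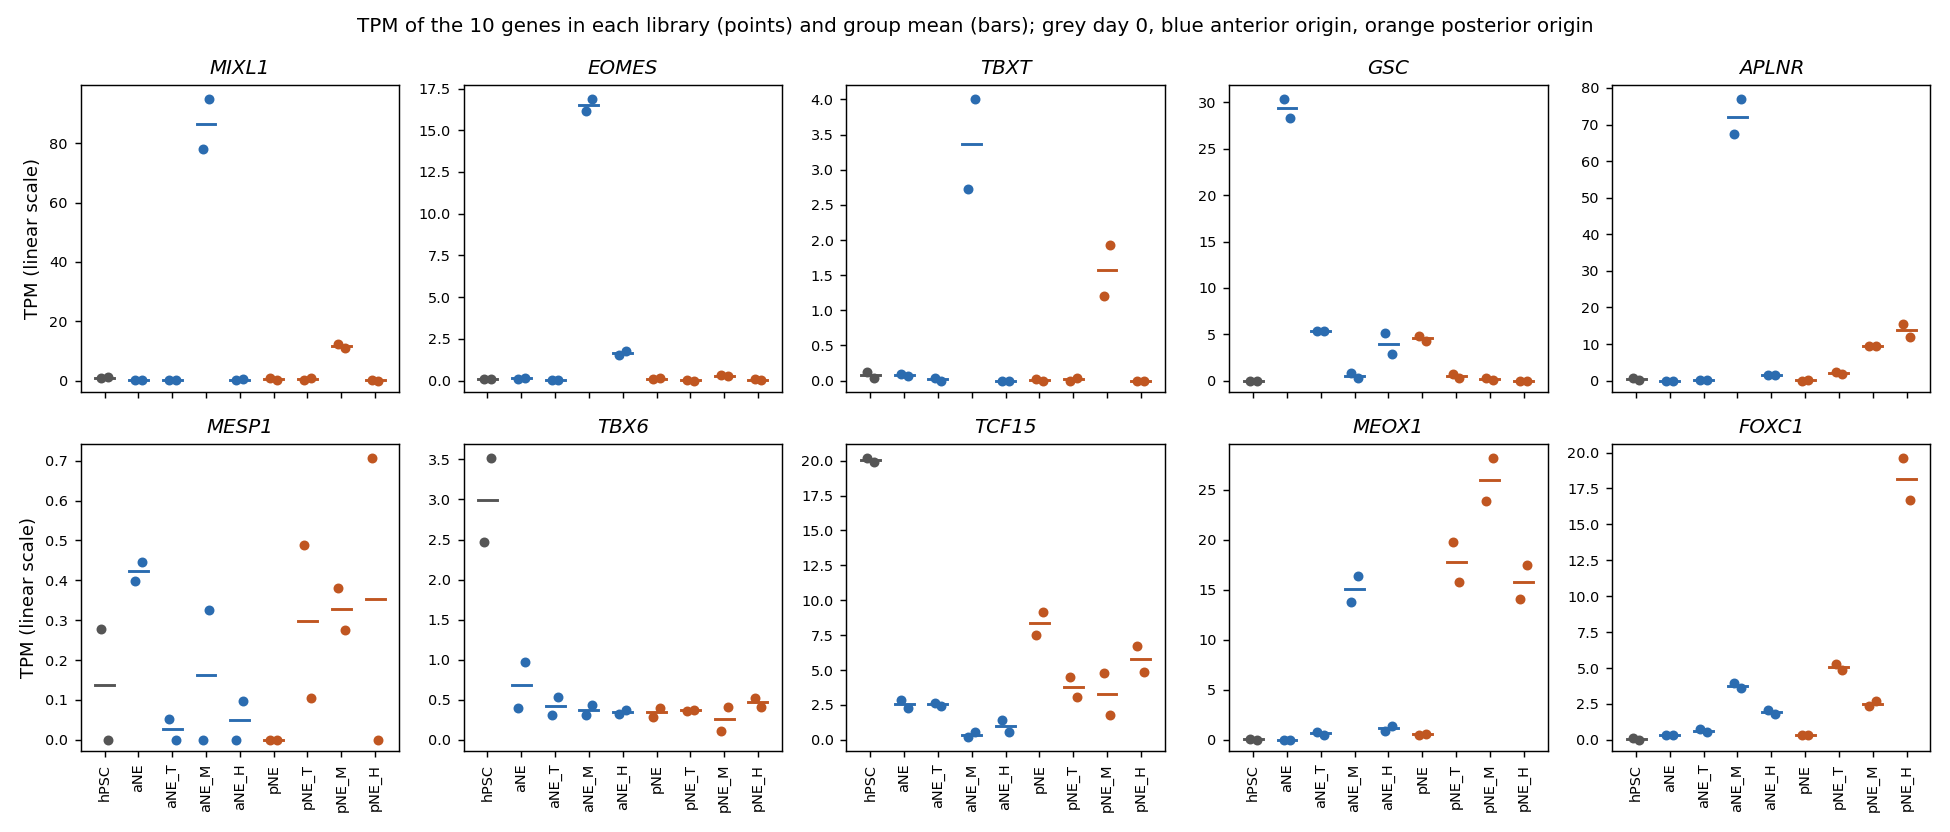
Level of each of the 10 genes in every library (vertical axes in TPM, linear, with a scale of its own for each gene) by group, with points for the 2 libraries of a group, a bar for their mean, grey for day 0, blue for aNE origin and orange for pNE origin. MIXL1 and APLNR stand highest in aNE_M, at means of 86.5 and 72.1 TPM, GSC in aNE at 29.4 TPM, MEOX1 in pNE_M at 26.0 TPM and FOXC1 in pNE_H at 18.1 TPM.

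MIXL1, a homeobox gene switched on in the streak by NODAL and WNT signals, read 78.0 and 94.9 TPM in the aNE_M libraries. It read 12.2 and 10.9 TPM in pNE_M, and 1.18 TPM or less in each of the other 14 libraries. The midbrain medium was thus the only one of the day-4 media with MIXL1 above the day-0 level, from either origin, and the 2 pairs of libraries did not overlap. The mean in aNE_M was 7.49 times that in pNE_M. On the log2(TPM + 1) scale the difference from the day-2 culture was 6.07 ± 0.26 (limma SE, n = 2 per group) for aNE_M and 3.05 ± 0.26 for pNE_M. Among the low groups, hPSC had the highest mean, 0.98 ± 0.28 TPM (SD, n = 2), and overlapped pNE_T.

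EOMES, a T-box gene needed for definitive endoderm and cardiac mesoderm, read 16.2 and 16.9 TPM in aNE_M. The next group was aNE_H, with 1.53 and 1.80 TPM, and in all other groups no library passed 0.317 TPM. EOMES thus separated the origins in the midbrain medium more than MIXL1 did: it read only 0.317 and 0.274 TPM in pNE_M. The difference of pNE_M from aNE_M was -3.76 ± 0.16 on the log2 scale, beside -2.80 ± 0.26 for MIXL1. From day 2, the difference was 3.95 ± 0.16 in aNE_M and 0.22 ± 0.16 in pNE_M.

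TBXT, the T-box gene of the streak, notochord and tail bud, reached lower levels in the same cultures. It read 2.72 and 4.01 TPM in aNE_M and 1.21 and 1.94 TPM in pNE_M. The other 14 libraries lay between 0 and 0.121 TPM, with 7 of them listed at 0. TBXT was therefore above all other groups in the midbrain medium from both origins, with a mean 2.14 times higher in aNE_M and no overlap between the 2 groups. The difference from day 2 was 1.99 ± 0.20 in aNE_M and 1.33 ± 0.20 in pNE_M.

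GSC, a homeobox gene of the organizer and prechordal plate, had another pattern. It was listed at 0 in both hPSC libraries and read 30.4 and 28.4 TPM in day-2 aNE, its highest level. It read 4.84 and 4.33 TPM in day-2 pNE, so that the aNE mean was 6.4 times the pNE mean. It was below the aNE level in all 3 day-4 media, with 5.34 and 5.37 TPM in aNE_T, 5.09 and 2.89 TPM in aNE_H, and 0.781 and 0.258 TPM in aNE_M. From pNE it read 0.740 and 0.297 TPM in pNE_T and 0.289 and 0.0872 TPM in pNE_M, and was listed at 0 in both pNE_H libraries. The group in which MIXL1, EOMES and TBXT stood highest was thus among the low groups for GSC, with a difference of aNE_M from aNE of -4.34 ± 0.23. Day-2 pNE and aNE_H overlapped, as did aNE_M and pNE_T.

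**Figure D2:**
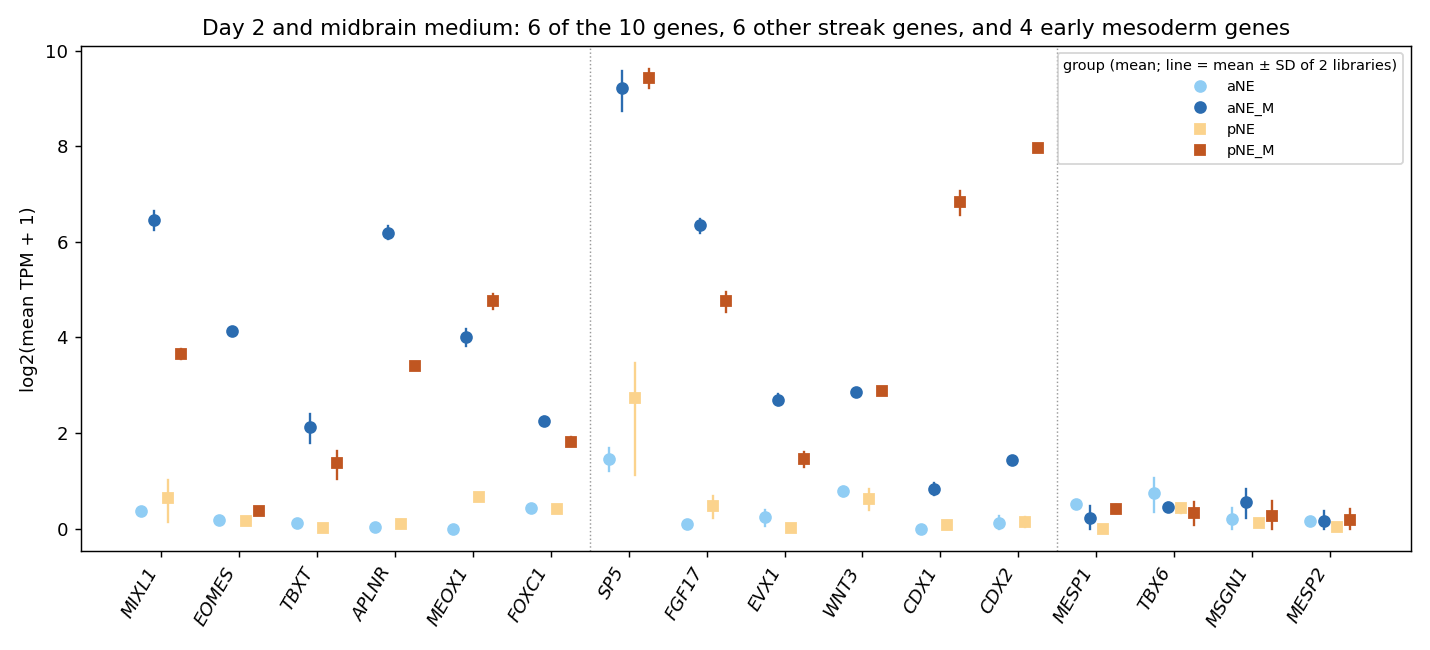
Group means (symbols) on a log2(mean TPM + 1) axis, with lines from mean minus SD to mean plus SD of 2 libraries (cut at 0), for 6 of the 10 genes, 6 other streak genes and 4 early mesoderm genes, MESP1 and TBX6 among them, in the day-2 and midbrain-medium cultures of each origin. In aNE_M, MIXL1 stands at 86.5 TPM and EOMES at 16.5 TPM, against 11.6 and 0.296 TPM in pNE_M, while MESP1, TBX6, MSGN1 and MESP2 stay under 1 TPM in all 4 groups.

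APLNR, the apelin receptor, read 67.3 and 77.0 TPM in aNE_M. It stood next in pNE_H, at 15.4 and 12.04 TPM, and then in pNE_M, at 9.48 and 9.54 TPM. Lower still were pNE_T at 2.35 and 1.86 TPM and aNE_H at 1.43 and 1.45 TPM. None of these 5 groups overlapped its neighbour in the order. The mean in aNE_M was 5.25 times that in pNE_H and 7.58 times that in pNE_M. Day-2 cultures of both origins and aNE_T read no more than 0.115 TPM, below the 0.670 and 0.233 TPM of hPSC.

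Unlike the streak factors, APLNR was above its day-2 level in all 3 day-4 cultures of pNE. The differences from pNE were 1.53 ± 0.18 in the forebrain, 3.29 ± 0.18 in the midbrain and 3.77 ± 0.18 in the hindbrain medium. From aNE they were 0.04, 6.17 and 1.26, each ± 0.18. The order of the media thus differed with origin: midbrain was highest from aNE and hindbrain from pNE. Between origins, APLNR was lower in pNE_M than in aNE_M, by -2.80 ± 0.18, and higher in pNE_T and pNE_H than in their aNE counterparts, by 1.57 ± 0.18 and 2.58 ± 0.18.

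The ligands of APLNR, which were not used to choose the genes, were low in the midbrain medium. APLN (apelin) and APELA (ELABELA) together summed to 0.826 to 0.957 TPM in the aNE_M libraries and 1.27 to 1.497 TPM in pNE_M. In pNE_H, where APLNR was second highest, they summed to 7.22 to 10.6 TPM, with APLN at 6.83 ± 2.3 TPM. In limma with Benjamini-Hochberg adjustment over the 17033 genes tested, APELA fell in aNE_M from 3.45 ± 0.03 to 0.734 ± 0.13 TPM (log2 difference -1.36 ± 0.20, adjusted p = 0.000139). It also fell in pNE_M from 6.68 ± 0.22 to 0.371 ± 0.27 TPM (-2.50 ± 0.20, adjusted p = 5.27e-07). APLN fell in pNE_M from 3.86 ± 0.51 to 1.01 ± 0.11 TPM (-1.27 ± 0.22, adjusted p = 0.000585). APLN was most abundant in the forebrain medium, where it rose to 12.1 ± 0.29 TPM in aNE_T (3.10 ± 0.22, adjusted p = 3.64e-07) and 19.3 ± 1.7 TPM in pNE_T (2.06 ± 0.22, adjusted p = 1.23e-05).

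MESP1, which follows EOMES and TBXT in the cardiac and cranial mesoderm of the embryo, did not reach the 1 TPM asked of a tested gene. Its highest value was 0.706 TPM, in a pNE_H library whose replicate was listed at 0. It was listed at 0 in 7 of the 18 libraries, and every group overlapped the next in the order of levels. In aNE_M, the peak of EOMES and TBXT, MESP1 read 0 and 0.327 TPM.

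TBX6, a T-box gene of the presomitic mesoderm, was highest before differentiation, at 2.46 and 3.52 TPM in hPSC. In the other 16 libraries it lay between 0.108 and 0.969 TPM. After hPSC, each group overlapped the next. The 2 aNE_M libraries read 0.305 and 0.429 TPM, within the range of the other differentiated groups.

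TCF15, a helix-loop-helix factor of the somites that pluripotent cells also express, was highest in hPSC, at 20.2 and 19.9 TPM. Day-2 pNE kept more of it, 7.54 and 9.16 TPM, than day-2 aNE, 2.86 and 2.29 TPM. The hPSC mean was 2.4 times the pNE mean and 7.77 times the aNE mean, and pNE stood 3.24 times above aNE. At day 4, the pNE-derived cultures read 4.502 and 3.05 TPM (forebrain), 4.79 and 1.76 TPM (midbrain) and 6.71 and 4.86 TPM (hindbrain). The aNE-derived ones read 2.63 and 2.45, 0.185 and 0.536, and 1.45 and 0.552 TPM in the same order. TCF15 was thus lowest in aNE_M, where MIXL1 and EOMES were highest, and was higher from pNE than from aNE in each medium, by 0.41, 1.57 and 1.78 (each ± 0.32).

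MEOX1, a homeobox gene of the somites, was near 0 in hPSC and listed at 0 in both aNE libraries. It read 23.9 and 28.1 TPM in pNE_M, 19.8 and 15.8 TPM in pNE_T, 14.0 and 17.5 TPM in pNE_H, and 13.7 and 16.4 TPM in aNE_M. The last 3 of these groups overlapped one another, and pNE_M stood above them, by 1.46 times over pNE_T. The remaining day-4 groups were low, with 0.876 and 1.42 TPM in aNE_H and 0.795 and 0.481 TPM in aNE_T. All media thus gave high MEOX1 from pNE, and only the midbrain medium did so from aNE. The difference between the origins was 3.52 ± 0.18 in the forebrain, 0.75 ± 0.18 in the midbrain and 2.97 ± 0.18 in the hindbrain medium.

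FOXC1, a forkhead gene of paraxial mesoderm and head mesenchyme, read 19.6 and 16.7 TPM in pNE_H. It read 5.30 and 4.83 TPM in pNE_T, 3.96 and 3.59 TPM in aNE_M, then 2.37 and 2.69 TPM in pNE_M, and 2.10 and 1.80 TPM in aNE_H. None of these groups overlapped its neighbour in the order. The pNE_H mean was 3.58 times that of pNE_T and 9.29 times that of aNE_H. Forebrain-medium cells from aNE read 0.734 and 0.528 TPM, and both day-2 groups 0.315 to 0.364 TPM. Against day 2, FOXC1 differed most in pNE_H, by 3.84 ± 0.15, and least in aNE_T, by 0.27 ± 0.15. Its paralogue FOXC2 stayed low, with a highest library at 1.09 TPM.

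The same threshold can be set beside the 10 genes and all tested genes, with nothing read from the counts of the 10, whose choice used these values. Called here means an adjusted p under 0.05 and a log2 difference of at least 1 in the limma fit, and 9 of the 10 genes, all but MESP1, entered it. In aNE_M against aNE, 8 of 9 passed (6 higher, and GSC and TCF15 lower), beside 12% of all tested genes. In pNE_M against pNE, 7 passed (5 higher, and the same 2 lower) beside 12.7%. In the hindbrain medium, 5 passed from aNE (4 higher, GSC lower) beside 10.1%, and 4 from pNE (3 higher, GSC lower) beside 12.3%. In the forebrain medium, 1 passed from aNE (GSC, lower) beside 9.03%, and 4 from pNE (3 higher, GSC lower) beside 10.2%. Between origins, 2 passed at day 2 (TCF15 higher and GSC lower in pNE) beside 3.85%. At day 4 the numbers were 4 in the forebrain medium beside 7.77%, 4 in the midbrain medium beside 5.74% and 6 in the hindbrain medium beside 6.83%. Against hPSC, 3 passed in aNE beside 13.5% and the same 3, GSC, TBX6 and TCF15, in pNE beside 12.9%. Comparisons that share a group share its libraries and are not independent of each other.

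Other genes of the same pathways came from 7 lists with 74 genes in all, of which 46 reached 1 TPM in at least 2 libraries and were tested. The share of all tested genes called is repeated beside their counts. Genes that passed only because 1 group expressed them had to differ, so that the counts describe and do not test the lists. Among the genes named below, CDX1, MYOD1 and HAND1 (through pNE_M) and PAX8 and GATA4 (through pNE_H) were such genes. No p is given for them. In the midbrain medium, 16 of the 46 were called from aNE (9 higher, 7 lower), or 34.8% beside 12% of all tested genes, and 24 from pNE (17 higher, 7 lower), or 52.2% beside 12.7%. The median log2 difference over the 46 was 0.01 and 0.29, against -0.02 and -0.06 over all tested genes. The forebrain medium gave 16 called from aNE (34.8% beside 9.03%) and 18 from pNE (39.1% beside 10.2%), and the hindbrain medium 13 (28.3% beside 10.1%) and 20 (43.5% beside 12.3%). Between the origins, 9 were called at day 2 (19.6% beside 3.85%). At day 4 it was 15 in the forebrain (32.6% beside 7.77%), 17 in the midbrain (37.0% beside 5.74%) and 21 in the hindbrain medium (45.7% beside 6.83%). In the fit of only the 4 midbrain-medium libraries, 11 rather than 17 were called. Against hPSC, 14 were called in aNE (30.4% beside 13.5%) and 12 in pNE (26.1% beside 12.9%). The 14 became 9 without aNE replicate 2, and the 12 became 7 of 31 when a level of 5 TPM was asked for.

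Of the 12 other primitive streak genes, 11 were tested. From aNE, the midbrain medium raised 5 (SP5, FGF17, EVX1, WNT3 and CDX2) and lowered 1 (FOXH1), with a median of 0.83, while 4.34% of all tested genes were called higher and 7.63% lower. From pNE it raised 6, those 5 and CDX1, and lowered FOXH1, with a median of 1.43, beside 4.87% and 7.85%. As many, 6 of 11 (54.5% beside 9.03%), were called in the forebrain medium from aNE, where FGF8, FGF17, LHX1 and WNT3 rose and FOXH1 and SP5 fell. FGF8 reached 71.2 ± 8.9 TPM there (3.81 ± 0.33, adjusted p = 2.19e-06 in limma). SP5, a zinc finger target of WNT signalling, rose from 1.76 ± 0.45 to 589.7 ± 165 TPM in aNE_M (log2 difference 7.72 ± 0.40, adjusted p = 8.75e-09 in limma). In pNE_M it rose from 5.62 ± 4.4 to 690.3 ± 93 TPM (6.88 ± 0.40, adjusted p = 2.89e-08 in limma). The ligand WNT3, which starts the streak in the mouse, rose in all 6 day-4 cultures against their day-2 origin, to 6.27 ± 0.08 TPM in aNE_M and 6.37 ± 0.31 TPM in pNE_M.

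The fibroblast growth factor FGF17 rose to 80.2 ± 8.3 TPM in aNE_M (6.24 ± 0.18, adjusted p = 3.77e-11 in limma) and to 26.0 ± 3.9 TPM in pNE_M (4.28 ± 0.18, adjusted p = 1.27e-09 in limma). Its level was lower from pNE than from aNE in this medium (-1.59 ± 0.18, adjusted p = 2.96e-05 in limma), in the same direction as MIXL1, EOMES and APLNR. EVX1, a homeobox gene of the posterior streak, reached 5.47 ± 0.51 TPM in aNE_M and 1.74 ± 0.31 TPM in pNE_M. The posterior homeobox genes went the other way. CDX1 stood at 112.7 ± 20 TPM in pNE_M and 0.783 ± 0.15 TPM in aNE_M (5.99 ± 0.18), with a mean under 1 TPM in all groups but pNE_M. CDX2 stood at 249.2 ± 3.7 and 1.72 ± 0.06 TPM (6.53 ± 0.25, adjusted p = 1.38e-09 in limma). FOXH1, the partner of SMADs in NODAL signalling, fell from 88.5 ± 4.9 TPM in hPSC to 9.80 ± 0.73 in aNE and 12.03 ± 3.3 in pNE, and further in all 6 day-4 cultures. NODAL itself was below 1 TPM in every day-4 library.

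Of the 19 presomitic mesoderm and somite genes, 8 were tested. In the midbrain medium 3 were called from aNE (2 higher, 1 lower), or 37.5% beside 12% of all tested genes. From pNE 4 were called, all higher, or 50.0% beside 12.7%. HES7, the oscillating gene of the segmentation clock, rose in the midbrain medium to 7.04 ± 2.6 TPM from aNE and 4.43 ± 0.10 TPM from pNE (adjusted p = 2.02e-05 and 2.75e-05 in limma). LFNG, which modifies NOTCH in the same clock and is used in neural tissue as well, rose to 100.6 ± 4.3 TPM in aNE_M from 37.1 ± 2.5 TPM in aNE (1.42 ± 0.11, adjusted p = 3.59e-07 in limma). In pNE_M it stood at 17.1 ± 0.96 TPM against 29.1 ± 1.1 TPM in pNE, a log2 difference of -0.74 ± 0.11 that was under the size asked for. The NOTCH ligand DLL1 fell from 13.8 ± 0.84 to 3.75 ± 0.01 TPM in aNE_M (-1.64 ± 0.35, adjusted p = 0.00279 in limma) and read 4.97 ± 1.3 TPM in pNE_M against 1.55 ± 0.54 TPM in pNE. The muscle determination gene MYOD1 read 13.6 ± 1.7 TPM in pNE_M and was listed at 0 in aNE_M and pNE. Several genes that accompany TBX6, MEOX1 and TCF15 in forming somites stayed low: MSGN1 at no more than 0.681 TPM in a library of aNE_M, MESP2 at no more than 0.276 TPM in the midbrain medium, MEOX2 at no more than 0.290 TPM and PAX1 at no more than 0.0649 TPM in any library. MYF5 was listed at 0 in all 18.

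Definitive endoderm genes numbered 11, of which 10 were tested. In aNE_M, 1 rose and 3 fell, or 40.0% called beside 12% of all tested genes. The chemokine receptor CXCR4 rose to 11.6 ± 2.4 TPM, while CER1, FOXA3 and HHEX fell. SOX17, the defining endoderm factor, was at 0 in each aNE_M library and reached 1.41 TPM at most, in pNE_H. In pNE_M, 3 rose, CXCR4 (to 29.5 ± 2.6 TPM) and CER1 among them, and FOXA2 and FOXA3 fell, or 50.0% called beside 12.7%. CER1, a secreted antagonist of NODAL and BMP, was highest in pNE_H, at 13.5 ± 2.4 TPM (3.27 ± 0.23 over pNE, adjusted p = 1.69e-07 in limma).

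Lateral, cardiac and intermediate mesoderm genes numbered 15, of which 8 were tested. In pNE_H, the group with the most FOXC1, 3 rose and 1 fell against pNE, with a median of 0.76. This was 50.0% called, beside 12.3% of all tested genes. In pNE_T and pNE_M, 3 were called in each, or 37.5% beside 10.2% and 12.7%. TBX1 was also higher in pNE_T (2.05 ± 0.21, adjusted p = 7.63e-06 in limma). NKX2-5 read 2.75 ± 0.71 TPM in pNE_T against 0.85 ± 0.37 TPM in pNE. In pNE_H, TBX1 reached 21.7 ± 1.2 TPM (3.46 ± 0.21, adjusted p = 4.66e-08 in limma) and the cardiac homeobox gene NKX2-5 20.2 ± 4.3 TPM (3.52 ± 0.25, adjusted p = 1.75e-07 in limma). PAX8 reached 5.05 ± 1.7 TPM in pNE_H (2.43 ± 0.25) and averaged under 1 TPM in all other groups. The endothelial receptor KDR fell to 3.33 ± 0.67 TPM. From other lists, GATA4 (endoderm) reached 6.11 ± 0.68 TPM and LHX1 (streak) 19.6 ± 0.74 TPM in pNE_H. Of the streak list, CDX2 and WNT3 also rose in pNE_H against pNE, while SP5 and FOXH1 fell. In aNE_M, none of the 8 was called by limma, beside 12% of all tested genes. In pNE_M HAND1 and OSR1 rose and KDR fell.

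The notochord and node list had 5 genes, of which 4 were tested. The BMP antagonist NOG rose in all 6 day-4 cultures, to 45.8 ± 8.3 TPM in aNE_M (5.01 ± 0.19, adjusted p = 4.08e-10 in limma) and 59.6 ± 1.6 TPM in pNE_M (5.82 ± 0.19, adjusted p = 1.21e-10 in limma). The cilia gene FOXJ1 fell in pNE_M, from 16.9 ± 1.3 to 3.68 ± 0.50 TPM. Of the 10 other T-box genes, 3 were tested. TBX3 rose in pNE_M and in pNE_H, where it reached 8.78 ± 1.8 TPM (3.17 ± 0.18, adjusted p = 2.48e-08 in limma). TBX10 fell in aNE_M to 3.21 ± 0.46 TPM from 8.23 ± 0.80 TPM (-1.13 ± 0.18, adjusted p = 0.000256 in limma), a difference that came under the threshold of 1 after quantile normalization (-0.975).

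**Figure D3:**
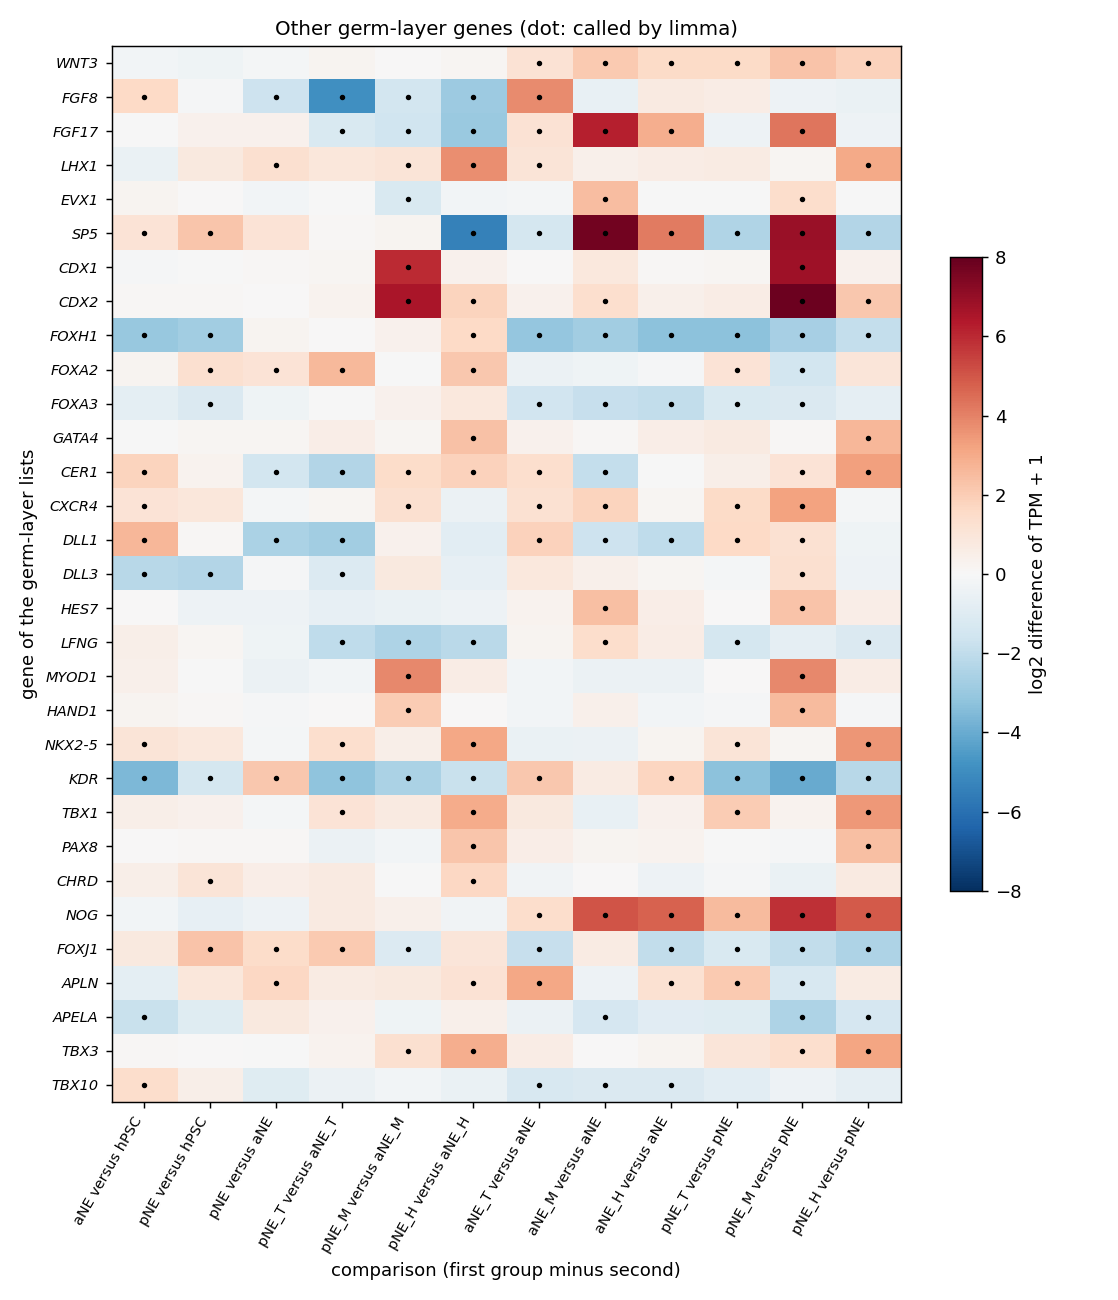
Log2 difference of TPM + 1 for 31 named genes of the lists (rows) in the 12 comparisons (columns, first group minus second), red for higher and blue for lower in the first group, with a dot where limma called the gene. SP5 is deep red in the midbrain medium from both origins (7.72 and 6.88), CDX1 and CDX2 are red in pNE_M against aNE_M (5.99 and 6.53), and WNT3 and NOG carry dots in all 6 comparisons of day 4 with day 2.

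Markers of other cell types moved with the high levels in aNE_M. The neural crest list summed to 135.8 to 145.7 TPM there and to 7.85 to 8.48 TPM in aNE, with 4 of its 7 genes at 1 TPM or more. PAX3, which the dorsal neural tube, the crest and the somites share, made up 125.2 ± 6.8 TPM of this, and SOX10, FOXD3 and TFAP2A were each below 1 TPM. In aNE_H the list summed to 105.6 to 112.7 TPM, in pNE_M to 83.2 to 96.3 TPM with 5 of 7 genes at 5 TPM or more, and in pNE_H to 41.2 to 42.0 TPM. The pan-neural list was lower in aNE_M than in aNE by its summed TPM, as given above, with SOX2 at 71.8 ± 2.0 TPM against 292.8 ± 5.8 TPM (-2.01 ± 0.11, adjusted p = 1.91e-08 in limma). OTX2 read 149.1 ± 18 TPM in aNE_M and 208.8 ± 7.7 TPM in aNE. The pluripotent list summed to 77.6 to 95.6 TPM in aNE_M, of which POU5F1 was 2.78 ± 0.18 TPM and NANOG 0.217 ± 0.19 TPM.

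The blood and endothelium list, of 5 genes, summed to 4.70 to 5.06 TPM in aNE_M and the surface ectoderm list, also of 5, to 10.2 to 11.4 TPM. The cardiac muscle list, of 4 genes, summed to 5.52 to 6.44 TPM in aNE_M, mostly from TNNT2. In pNE_H, where FOXC1 was highest, it summed to 26.9 to 36.2 TPM. NKX2-5, described above, made up 20.2 ± 4.3 TPM of this, while the muscle genes MYL7 and TNNT2 read 6.92 ± 2.2 and 4.46 ± 0.11 TPM, and TNNT2 stood at 20.1 ± 0.28 TPM in pNE. In aNE_T the list summed to 89.7 to 99.0 TPM, mostly from MYL7 at 67.4 ± 6.4 TPM, with MEOX1 and FOXC1 below 1 TPM. The part of these other cell types in the levels of the 10 genes was not tested.

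**Figure D4:**
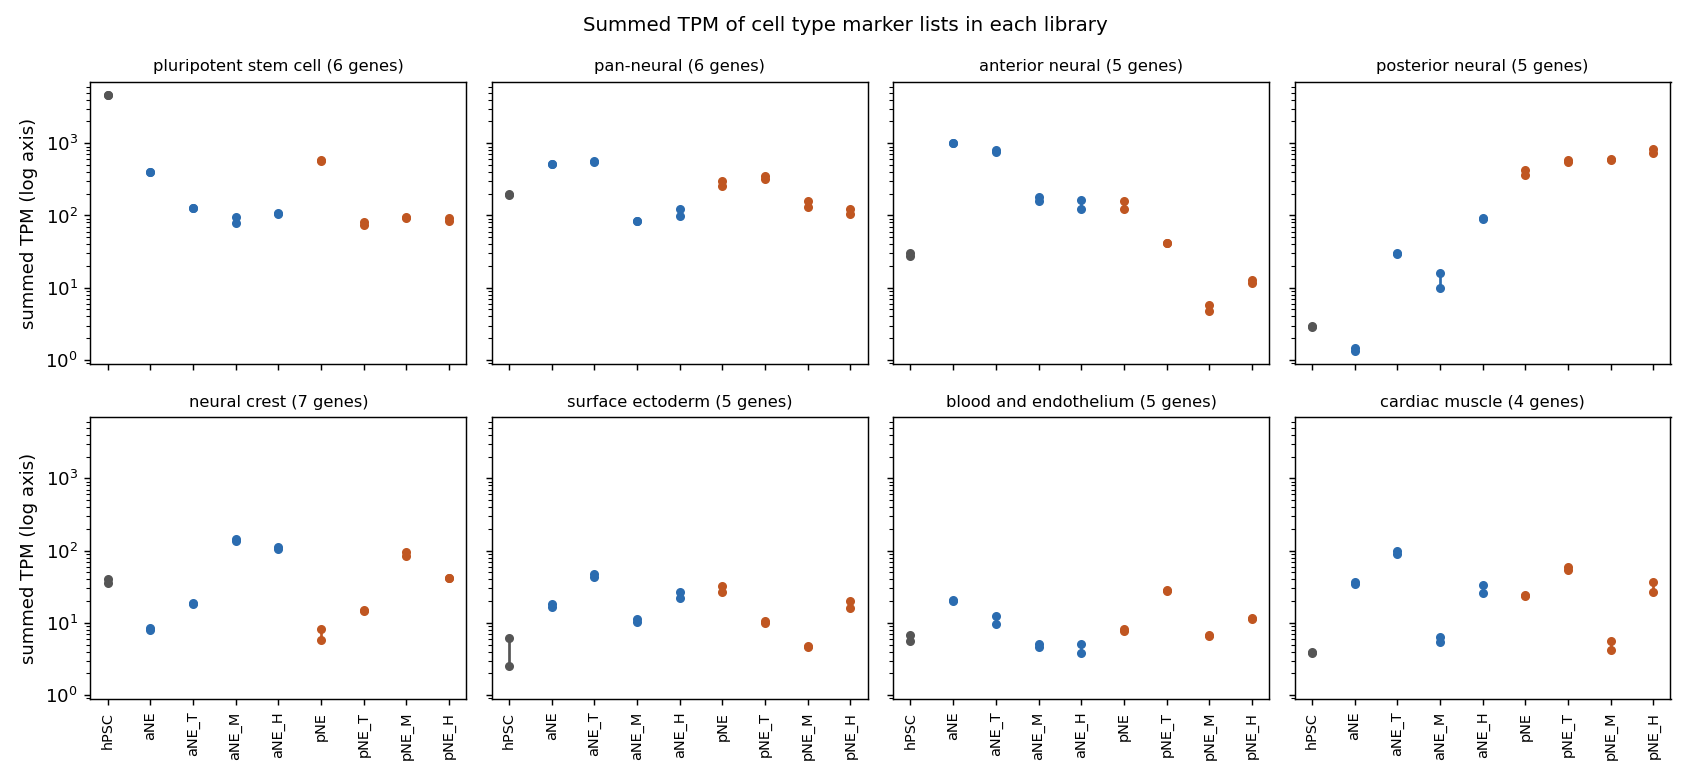
Summed TPM of each marker list in each library (points, joined within a group) on a logarithmic axis, by group, grey for day 0, blue for aNE origin and orange for pNE origin. The sum of the neural crest list is highest in aNE_M, at 135.8 to 145.7 TPM, mostly from PAX3. Of its 7 genes, 2 averaged at least 5 TPM there, against 5 in pNE_M. The pan-neural list is lower in aNE_M, at 83.3 to 84.4 TPM, than in aNE, at 507.6 to 508.8 TPM.

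For the 7 genes with a mean of at least 5 TPM in some group, the 3 genes with the most similar pattern were taken from 12452 candidates by Pearson's r of log2(TPM + 1) over the 18 libraries. These libraries include replicate pairs and share 1 cell line, so that r is a description. For MIXL1 they were EVX1 (r = 0.978), the WNT antagonist DKK1 (0.969) and APCDD1 (0.961), a further inhibitor of WNT signalling. DKK1 read 423 ± 51 TPM in aNE_M, 94.7 ± 4.1 TPM in pNE_M and 1.15 ± 0.16 TPM or less in the other groups. For EOMES they included the homeobox genes EMX2 (0.991) and EN1 (0.977). EN1, a gene of the midbrain-hindbrain boundary, read 134.6 ± 9.5 TPM in aNE_M and was listed at 0 in both pNE_M libraries.

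For APLNR the nearest were SP1 (0.947), NKX6-1 (0.929) and AXIN2 (0.920), a feedback gene of WNT signalling with 313.5 ± 1.5 TPM in aNE_M, against 270.2 ± 3.2 TPM in pNE_M. For GSC they were AUTS2 (0.945), LHX5 (0.924) and MARCKS (0.923), with LHX5 one of the anterior neural markers. MEOX1 was nearest to ATP6V1B2 (0.935), WFIKKN1 (0.933) and POU3F2 (0.928). FOXC1 was nearest to SEZ6L (0.964), at 71.5 ± 5.0 TPM in pNE_H, RAB32 (0.954) and DPY19L1 (0.926). TCF15 was nearest to KCNS3 (0.903), SFXN5 (0.897) and MAP7 (0.893). With a pseudocount of 0.1 instead of 1, all 3 genes stayed in this place for TCF15, 2 for MIXL1 and EOMES, 1 for APLNR and 0 for GSC, MEOX1 and FOXC1.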

How the data were processed

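Poly-A-selected RNA of 18 H1 libraries was sequenced, and the authors deposited 1 table of TPM per gene. The processing notes of the submitters name kallisto, Trim Galore, FastQC, bcl2fastq, deepTools and hg38, with no version or role, and use of strand is not given in the sources used here. TPM keeps no read number, so depth is unknown and no counting interval is given.

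Genes that reached 1 TPM in 2 or more libraries, 17033 in number, were analysed as log2(TPM + 1), which understates differences of low genes. All 18 libraries entered 1 limma model (limma 3.58.1, R 4.3.3) with a mean for each group, which leaves 9 residual degrees of freedom. Its tests were two-sided with Benjamini-Hochberg adjustment, and a gene was called at an adjusted p under 0.05 and a log2 difference of at least 1. The fit was tested on simulated data. The 10 genes, the 7 gene lists, the marker lists and the motifs were chosen with earlier results of these data known. Named list genes were those called in at least 1 of the 12 comparisons with at least 5 TPM in the higher group. A few genes that the rule names are not reported here. Some low list and marker genes outside that rule are given by level. Figures were drawn with matplotlib 3.10.9. Alternatives were another pseudocount, other filters, median-ratio scaling, quantile normalization, a replicate block, separate fits and leaving out each replicate.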

Additional observations from a re-analysis of the deposited data

Results flagged for a closer look

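For named genes of the lists, the response of pNE to a day-4 medium (day 4 minus day 2, log2 scale) was compared with that of aNE by the interaction term of the limma fit, and the 42 differences given here passed the threshold. CDX1, MYOD1 and HAND1 entered the fit only through pNE_M, and PAX8 and GATA4 only through pNE_H. The differences of these genes are therefore description and not a test. Values are the pNE response minus the aNE response, so that a higher response can be a smaller fall and a lower one a smaller rise. Some responses had opposite signs. SP5 in the hindbrain medium had 4.16 from aNE and -2.37 from pNE, and KDR in the forebrain medium 2.17 and -3.25. Plating density differed with origin at day 4, and its part was not tested.

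In the midbrain medium, 15 are given. The pNE response was higher for CDX2 (6.49), CDX1 (5.92), MYOD1 (4.33), CER1 (2.95), DLL1 (2.87), HAND1 (2.13), CXCR4 (1.43) and TBX3 (1.35). It was lower for KDR (-4.69), FOXJ1 (-2.56), LFNG (-2.15), FGF17 (-1.96), APELA (-1.14), FOXA2 (-1.13) and EVX1 (-1.03). On the log2(TPM + 1) scale, FGF17 (4.28 in pNE against 6.24 in aNE) and EVX1 (1.43 against 2.46) rose from both origins, and less from pNE. For EVX1, which averaged 0.176 TPM in aNE and 0.0096 TPM in pNE at day 2, which rise is larger depends on this scale. CDX1 and CDX2 are posterior homeobox genes, and FGF17 and EVX1 had their highest levels in aNE_M, like MIXL1.

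In the hindbrain medium, 18 are given. The pNE response was higher for CER1 (3.33), NKX2-5 (3.30), TBX1 (3.11), TBX3 (2.95), LHX1 (2.46), GATA4 (2.17), PAX8 (2.15), CDX2 (1.72), DLL1 (1.69), FOXH1 (1.35), FOXA3 (1.21), CHRD (1.15), MYOD1 (1.07) and FOXA2 (1.05). It was lower for SP5 (-6.52), KDR (-3.93), FGF17 (-3.32) and LFNG (-1.81). Responses were negative from both origins, and less so from pNE, for DLL1 (-0.34 in pNE against -2.04 in aNE), FOXH1 (-1.91 against -3.25) and FOXA3 (-0.75 against -1.96). MYOD1 averaged under 1 TPM in each group compared here.

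In the forebrain medium, 9 are given. The pNE response was higher for NKX2-5 (1.55), FOXA2 (1.52), TBX1 (1.25) and NOG (1.12), and lower for KDR (-5.42), FGF8 (-3.22), LFNG (-1.67), FGF17 (-1.57) and APLN (-1.04). APLN rose from both origins, by 2.06 in pNE against 3.10 in aNE.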

How the results depend on the processing

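The number of list genes called stayed within 1.5 times of the reported one in all 12 comparisons under median-ratio scaling, quantile normalization, the replicate block, a pseudocount of 0.1 and testing with no filter, with 3 exceptions elsewhere. Against hPSC, the 14 genes called in aNE ranged from 9 to 14 when 1 replicate was left out, with 9 without aNE replicate 2. The 12 called in pNE became 7 with a filter of at least 5 TPM, under which 31 list genes were tested. The 17 called between pNE_M and aNE_M became 11 in a fit of only those 4 libraries, which has fewer samples. Same-numbered replicates did not deviate together (r of their deviations -0.09 to 0.076 over 36 pairs of groups, none over 0.1). The replicate block changed none of the 126 calls of named genes.

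No named gene reversed. Of the 126 calls, 12 were lost in the separate fits, 2 with a pseudocount of 0.1 (EVX1 between pNE_M and aNE_M, adjusted p = 0.104 in limma, and FOXA2 between pNE_T and pNE, 0.0742) and 2 after quantile normalization (TBX10 in aNE_M and aNE_H against aNE). Leaving out a replicate, where the lone library is assumed to vary like the other groups, took 10 differences under the log2 threshold of 1. For TBX1 between pNE_T and aNE_T it was 0.91 without aNE_T replicate 2 and 0.98 without pNE_T replicate 1. For FOXJ1 between pNE_M and aNE_M it was -0.85 without aNE_M replicate 1 and -0.98 without pNE_M replicate 2, and between pNE_T and pNE -0.98 without pNE_T replicate 2. For APLN between pNE_H and aNE_H it was 0.93 without aNE_H replicate 1 and 0.82 without pNE_H replicate 2. For FOXA2 between pNE_T and pNE it was 0.94 without pNE replicate 1 and 0.89 without pNE_T replicate 2, and for LFNG between pNE_H and pNE -0.9985 without pNE_H replicate 2. Of the 90 group means of the 10 genes, median-ratio scaling moved 3 and quantile normalization 21 by more than the replicate SD. Depth is unknown, so a value listed at 0 sets no limit.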
